A study of Mus musculus with 6 samples.

Results

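Alox12b, Aloxe3, Abca12, Elovl4, Cers3, Tgm1, Tgm3 and Cyp4f39 encode enzymes and a transporter that build the lipid and crosslinked protein barrier of the epidermis. They were taken by gene symbol from a table of gene expression in mouse wound skin, and all 8 were found among its 23913 usable genes. RNA was sequenced from skin resected around an incisional wound in the back of C3H mice, to ask how topical vemurafenib, an inhibitor of the BRAF kinase that can raise ERK signalling in cells with wild-type BRAF, affects healing. The table holds 6 libraries, 1 for each arm on days 2, 6 and 14 after wounding. The vemurafenib wounds received 2 mg of the drug on the wound every other day. The vehicle wounds are described in the methods as given DMSO in PBS and in the sample labels as untreated, so the exact handling of this arm is given in 2 ways. Both arms were female mice of the C3Hf/Kam strain aged 8 to 10 weeks, and no mutant allele is named for either arm. The number of mice behind a library is not stated in the sources used here. Because each arm has 1 library on each day, no replicate stands behind a difference between the arms on a day, and each value describes a library rather than a condition.

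The outer barrier of the skin is made by keratinocytes as they leave the basal layer and turn into flat, dead corneocytes. They load lamellar bodies with ceramides whose very long fatty acid carries linoleate at its far end, release them between the cells, and replace part of the cell membrane by a lipid layer bound to a shell of crosslinked proteins, the cornified envelope. Human mutations in the counterparts of most of these genes cause inherited ichthyosis, a group of scaling skin diseases with a leaky barrier.

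The steps of this route set the order used here. Elovl4 lengthens fatty acids to the very long chains that barrier ceramides need. Cyp4f39, the mouse counterpart of human CYP4F22, adds a hydroxyl group at the far end of those chains. Cers3 joins the chain to a sphingoid base, which gives the ceramide. Abca12 carries glucosylated ceramide into lamellar bodies. Alox12b and Aloxe3 are lipoxygenases that act one after the other on the linoleate of these ceramides, a step needed to bind the lipid to the envelope. Tgm1 and Tgm3 are transglutaminases that crosslink envelope proteins, and Tgm3 also acts in the hair follicle.

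Levels are given in FPKM, the number of sequenced fragments scaled to transcript length and to library size, which lets different genes be compared per length. Read numbers cannot be recovered from this unit, and the depth of each library is unknown. The 6 libraries summed to between 692634 and 931171 FPKM, and between 12746 and 13062 genes reached 1 FPKM. The columns have 2 forms. In 4 of them, 50.5% to 58.2% of the non-zero entries are written with over 6 significant digits, as an average of 2 entries would be. In the vemurafenib day 2 and vehicle day 14 columns this share was 0.269% and 0.273%, and these columns listed 6088 and 6000 genes at 0, against 5214 to 5446 in the others. The ratios of days 2 and 14 therefore set a column of one form against one of the other, whereas day 6 sets like against like.

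The 8 genes lie on 7 chromosomes of the mm9 build. Aloxe3 (chr11:68939398-68962617) and Alox12b (chr11:68970491-68983294) are neighbours on the plus strand, with 7873 bases between the end of Aloxe3 and the start of Alox12b. The others are Abca12 at chr1:71289664-71461484 (minus strand), Tgm3 at chr2:129838085-129876135 (plus), Cers3, annotated there under its older name Lass3, at chr7:73888390-73968578 (plus), Elovl4 at chr9:83672300-83699912 (minus), Tgm1 at chr14:56318846-56332329 (minus) and Cyp4f39 at chr17:32605404-32630265 (plus).

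The promoters of Elovl4, the most abundant member, and of Alox12b and Tgm3, whose profiles over the 6 libraries were the farthest apart, are printed as examples. How like these promoters are was not measured or set against the profiles. Each runs from 250 bases before to 50 bases after the start that RefSeq gives on build GRCm38.p6, and each was found at 1 place in mm9, at chr9:83699863-83700162 on the minus strand for Elovl4, chr11:68970324-68970623 on the plus strand for Alox12b and chr2:129837826-129838125 on the plus strand for Tgm3. Capitals mark the motifs named in the next paragraph.
Elovl4: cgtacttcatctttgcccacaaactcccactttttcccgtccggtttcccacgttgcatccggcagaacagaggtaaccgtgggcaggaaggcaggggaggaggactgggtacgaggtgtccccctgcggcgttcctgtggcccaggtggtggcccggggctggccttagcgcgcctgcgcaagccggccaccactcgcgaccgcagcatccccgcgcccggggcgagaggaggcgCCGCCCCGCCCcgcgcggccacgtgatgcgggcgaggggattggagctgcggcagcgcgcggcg
Alox12b: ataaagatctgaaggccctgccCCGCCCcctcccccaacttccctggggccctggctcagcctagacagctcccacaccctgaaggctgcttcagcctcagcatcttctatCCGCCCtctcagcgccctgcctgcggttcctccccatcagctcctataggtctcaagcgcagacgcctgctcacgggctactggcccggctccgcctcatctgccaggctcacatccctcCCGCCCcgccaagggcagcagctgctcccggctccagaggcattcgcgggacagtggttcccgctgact
Tgm3: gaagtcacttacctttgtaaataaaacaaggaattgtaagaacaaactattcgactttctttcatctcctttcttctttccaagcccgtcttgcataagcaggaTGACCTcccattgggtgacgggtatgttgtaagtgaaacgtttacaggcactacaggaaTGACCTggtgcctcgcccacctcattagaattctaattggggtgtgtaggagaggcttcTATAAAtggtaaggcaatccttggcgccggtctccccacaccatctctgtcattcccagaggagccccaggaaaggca

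RefSeq gave 8 such windows for 7 of the genes, since Tgm1 has 2 starts. On both strands of the windows 6 motifs were searched, none of which contains another. TATAAA, the TATA box, was found in Tgm3, where it begins 28 bases before the start, and in 13.6% of 32851 promoters of the same length. GGGCGG, which KLF and SP factors can bind, was found in Alox12b at 228, 139 and 19 bases before the start, in Elovl4 at 14 and 9 bases, where the matches overlap, and in a window of Tgm1 at 136 and 12 bases, and it occurs in 35.7% of promoters. AGGTCA, which nuclear receptors such as the PPAR factors can bind, was found in Cers3 at 122 bases, in a window of Tgm1 at 182 bases and in Tgm3 at 146 and 87 bases, and it occurs in 16.3% of promoters. The AP-1 motif (TGACTCA or TGAGTCA, 5.20% of promoters), the GRHL motif (AACCGGTT, AACCTGTT or AACAGGTT, 1.11%) and the CEBP motif (TTGCGCAA or TTGCACAA, 1.19%) matched none of these windows.

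Elovl4 was the most abundant member per length in all 6 libraries, and the enzymes of the lipid chain had similar levels in both arms on day 2. Elovl4 stood at 112.6, 92.0 and 82.4 FPKM in vemurafenib wounds on days 2, 6 and 14, against 86.2, 164.4 and 181.5 FPKM in vehicle wounds. Cyp4f39 stood at 19.9, 17.6 and 19.0 FPKM in vemurafenib wounds, against 17.4, 41.5 and 24.6 FPKM in vehicle wounds. Elovl4 was thus highest on day 14 in vehicle wounds and lowest on day 14 in vemurafenib wounds, while Cyp4f39 had a single high library, vehicle day 6. Cers3 stood at 7.91, 6.38 and 10.2 FPKM in vemurafenib wounds, against 6.08, 12.8 and 22.9 FPKM in vehicle wounds. Abca12 was the least abundant member in 5 of the 6 libraries, with 2.75, 2.59 and 1.76 FPKM in vemurafenib wounds, against 2.09, 5.78 and 7.60 FPKM in vehicle wounds. For both the ceramide synthase and its downstream transporter the vehicle wounds had higher levels at each later day, and Abca12 had its lowest level of all in vemurafenib wounds on day 14.

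The lipoxygenase pair shared 1 high library. Alox12b stood at 8.001, 8.48 and 3.002 FPKM in vemurafenib wounds, against 7.25, 32.2 and 8.22 FPKM in vehicle wounds. Aloxe3 stood at 6.33, 6.32 and 3.99 FPKM in vemurafenib wounds, against 4.18, 16.4 and 5.43 FPKM in vehicle wounds. Vehicle day 6 was the highest library for both genes, and vemurafenib day 14 was the lowest. The transglutaminases had their highest levels on day 14 in both arms. Tgm1 stood at 31.2, 22.1 and 53.5 FPKM in vemurafenib wounds, against 31.2, 58.2 and 69.9 FPKM in vehicle wounds. Tgm3 stood at 7.13, 6.43 and 35.2 FPKM in vemurafenib wounds, against 5.07, 18.3 and 74.4 FPKM in vehicle wounds. On day 14 in vehicle wounds Tgm3 passed Tgm1 and was second only to Elovl4, whereas in the other 5 libraries Tgm1 was second. Within a library the levels have no replicate spread, so neighbours in this order cannot be separated by a test.

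**Figure D1:**
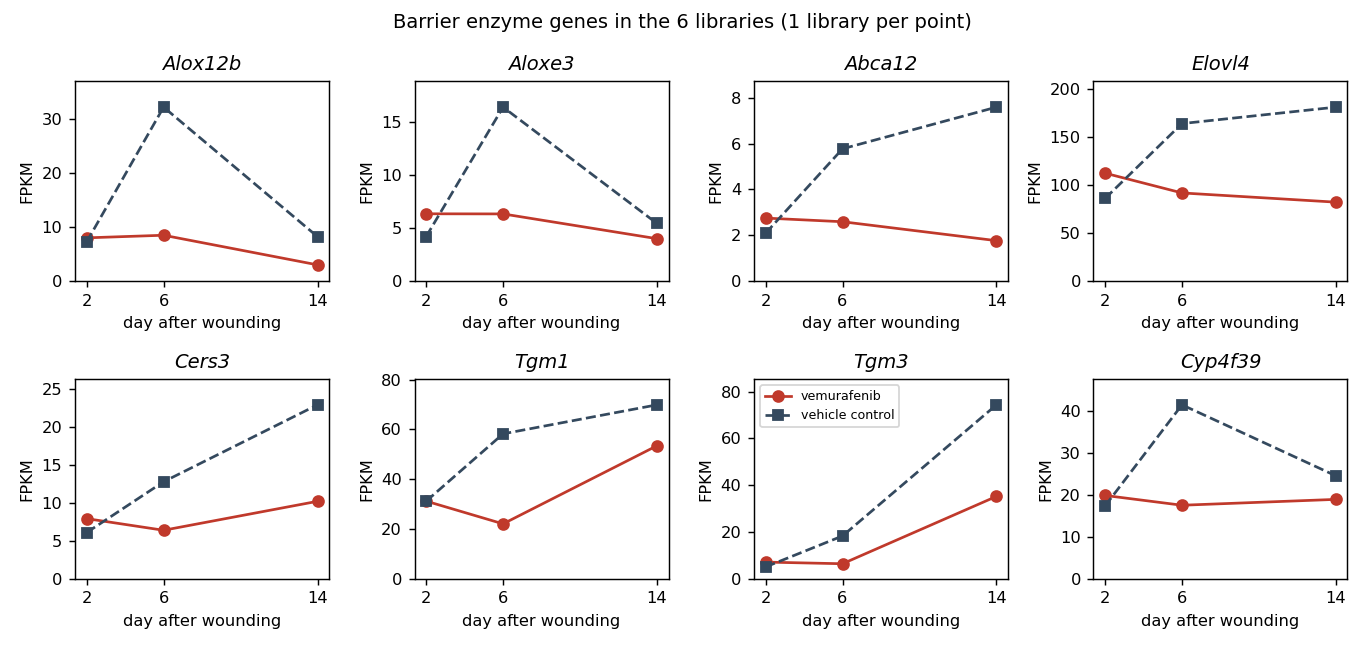
FPKM of each of the 8 genes (vertical axis from 0, own scale for each gene) against the day after wounding, with vemurafenib wounds as red circles on solid lines and vehicle wounds as dark squares on dashed lines; each point is 1 library and there are no error bars. The arms lie close on day 2, and the vehicle point lies above the vemurafenib point for every gene on days 6 and 14.

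On day 2 the arms differed little in these genes. The log2 ratio of vemurafenib to vehicle, taken after adding 0.1 FPKM to both values, ranged over the members between 0.00 for Tgm1 and 0.59 for Aloxe3, with a median of 0.38 beside 0.00 over the 13392 genes averaging 1 FPKM or more. None of the 8 reached a 2-fold difference, which 4.69% of all genes did in either direction. In a bulk sample, fewer keratinocytes of the upper layers and less RNA per such cell cannot be told apart, here and in every ratio that follows.

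On day 6 all 8 genes were lower in the vemurafenib library, as were 6022 of the 13392 genes averaging 1 FPKM or more. The log2 ratios were -1.91 for Alox12b, -1.50 for Tgm3, -1.40 for Tgm1, -1.36 for Aloxe3, -1.24 for Cyp4f39, -1.13 for Abca12, -0.99 for Cers3 and -0.84 for Elovl4. Alox12b was thus at 26.4% of its vehicle level and Elovl4 at 56.0%. The members' median was -1.30, beside 0.04 over all genes, and 6 of the 8 were at least 2-fold lower, as were 5.03% of all genes. Another 5.29% of all genes were at least 2-fold higher, and none of the members was. Cers3 lay at the border of 2-fold and Elovl4 inside it.

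On day 14 all 8 were again lower in the vemurafenib library, with another order, and 7629 of the 13392 genes were lower too. Abca12 was farthest down, with a log2 ratio of -2.04, or 23.2% of its vehicle level. Alox12b followed at -1.42, Cers3 at -1.16, Elovl4 at -1.14 and Tgm3 at -1.08. The other 3 members were less than 2-fold lower, with -0.43 for Aloxe3, -0.39 for Tgm1 and -0.37 for Cyp4f39. The median was -1.11, beside -0.12 over all genes, and 5 of 8 members were at least 2-fold lower, as were 7.66% of all genes, while 3.64% of all genes and no member were at least 2-fold higher. Abca12, Elovl4 and Cers3 therefore had lower ratios on day 14 than on day 6, and the other 5 members had ratios nearer to 0 on day 14.

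**Figure D2:**
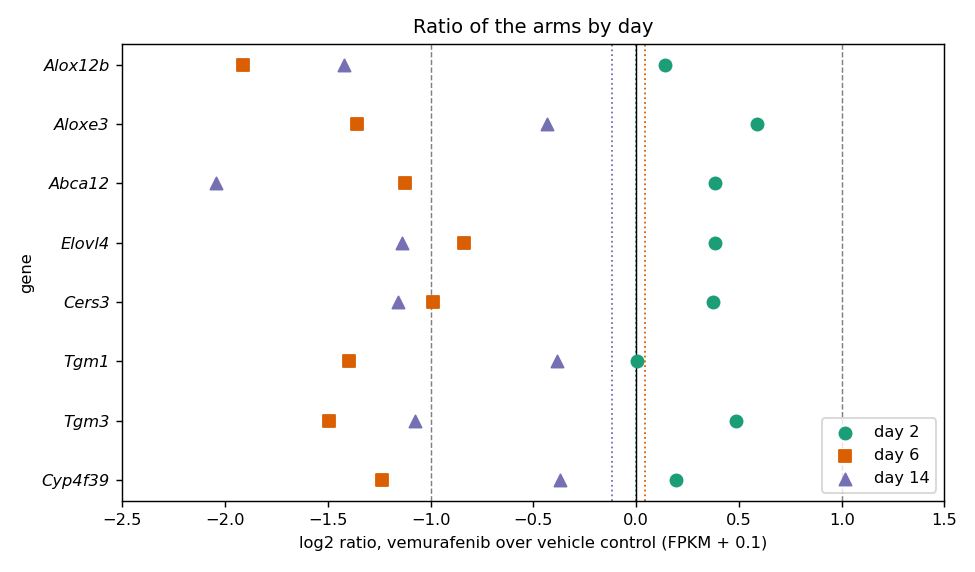
Log2 ratio of vemurafenib to vehicle wounds (horizontal axis, 0.1 FPKM added to both) for each of the 8 genes (rows) on days 2, 6 and 14, 1 pair of libraries for each point and no error bars. In the deposited scaling all points of day 2 lie at or right of 0, and all points of days 6 and 14 lie left of it.

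How far the ratios lie from 0 depends on how the libraries are scaled. A scaling multiplies all genes of a library alike. The distance of the members from other genes is therefore nearly fixed in advance and is no check. With the 6 libraries set to the same total FPKM, the median of all genes moved to 0.18, 0.40 and -0.25 on days 2, 6 and 14, the members' medians to 0.56, -0.94 and -1.24, and 4 members were at least 2-fold lower on day 6, when 2.82% of all genes were lower and 10.8% higher. On day 14 that scaling had 11.4% of all genes at least 2-fold lower and 2.64% higher, with 5 members lower. With the same upper quartile the day 14 split was 5.07% lower and 5.84% higher, and 3 members were at least 2-fold lower. The members' median minus that of all genes was -1.34 on day 6 in the deposited scaling and under each of these scalings, and between -0.99 and -0.98 on day 14. No member's ratio on day 6 or 14 turned positive under any of them, whereas the day 2 ratio of Tgm1 was -0.04 with the same upper quartile.

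Genes of keratinocytes and of other cells differed between the arms in the same libraries. Markers of suprabasal keratinocytes, the layer in which the members are used, had median log2 ratios of 0.41, -1.28 and -0.78 on days 2, 6 and 14, and all 13 of them were in the table. Their summed level was 21671, 13537 and 8167 FPKM in vemurafenib wounds, against 22600, 33696 and 8015 FPKM in vehicle wounds. The members' medians lay -0.04, -0.02 and -0.33 from those of this list. On day 2 single members lay between -0.41 and 0.17 from it, and on day 6 between -0.64 and 0.44. On day 14 they lay between -1.27 and 0.40 from it. Below the median of the list were 6, 4 and 5 of the 8 on days 2, 6 and 14. The 12 markers of basal keratinocytes had medians of 0.09, -0.68 and 0.20, and summed to 13427, 4824 and 4410 FPKM in vemurafenib wounds, against 12986, 12068 and 3318 FPKM in vehicle wounds. Relative to the basal list all 8 members were lower on days 6 and 14, by median differences of -0.62 and -1.31.

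Hair genes matter for Tgm3, which the inner root sheath also makes. The 19 markers of inner root sheath and hair shaft summed to 7.57, 1695 and 21432 FPKM in vemurafenib wounds, against 5.53, 4347 and 26315 FPKM in vehicle wounds. They were near absent on day 2, when Krt26, Krt72, Krt33a, Krt34 and Krt35 were listed at 0 in both arms, and on day 6 their median log2 ratio was -1.67. Macrophage and monocyte markers (13 of 13 in the table) were higher in vemurafenib wounds on day 6, with a median of 1.39 and sums of 1279, 3012 and 1036 FPKM in vemurafenib wounds, against 2455, 1459 and 656.1 FPKM in vehicle wounds. Skeletal muscle markers (10 of 10) summed to 22845, 10910 and 5975 FPKM in vemurafenib wounds, against 21293, 4737 and 1839 FPKM in vehicle wounds, with medians of 0.18, 1.24 and 1.76. The part that these cells had in the members' ratios was not tested.

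**Figure D3:**
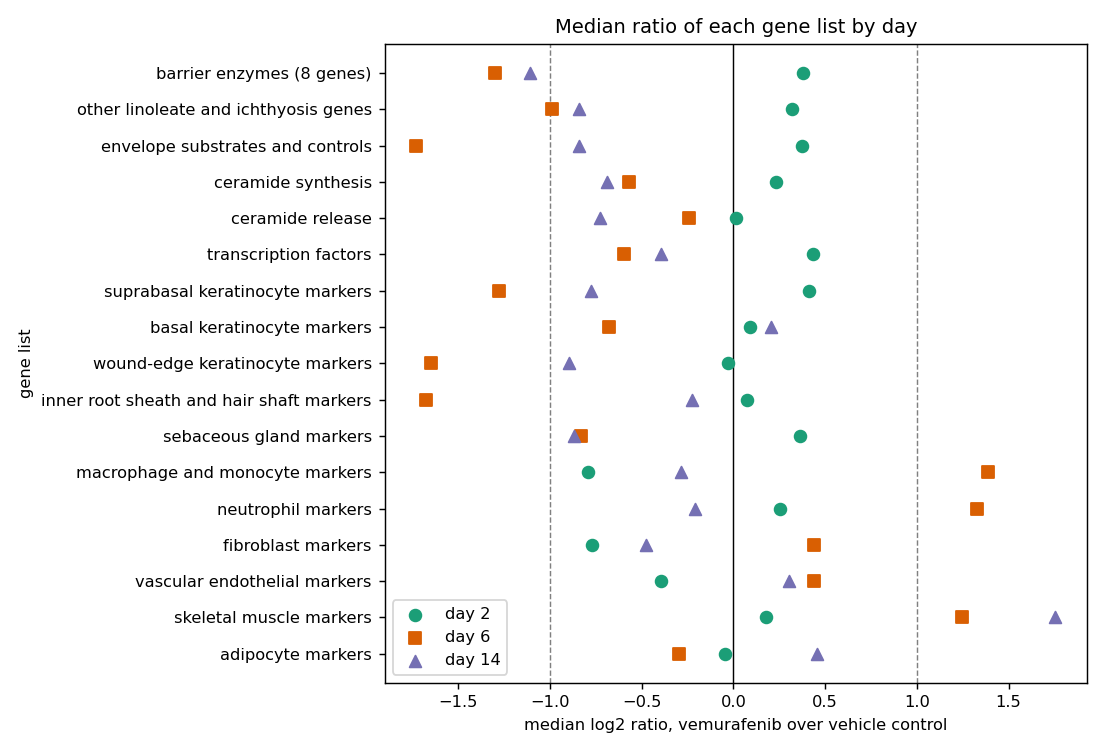
Median log2 ratio of vemurafenib to vehicle wounds (horizontal axis) for the 8 genes, the fixed gene lists and the cell type marker lists (rows) on days 2, 6 and 14; each point is a median over the genes of a list that average 1 FPKM or more, from 1 pair of libraries. On day 6 the members (-1.30) lie near the suprabasal markers (-1.28), left of the basal markers (-0.68), and opposite to the macrophage markers (1.39).

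Between days 2 and 6 the members separated by arm. The vemurafenib columns of these days differ in form, whereas the vehicle columns have the same form. In vemurafenib wounds none of the 8 differed 2-fold between these days, with log2 differences (day 6 over day 2) between -0.50 for Tgm1 and 0.08 for Alox12b and a median of -0.16, while 16.1% of all genes differed at least 2-fold in either direction. In vehicle wounds all 8 were higher on day 6 than on day 2, with a median of 1.34 beside 0.00 over all genes, and 6 were at least 2-fold higher, as were 9.98% of all genes. The largest of these was Alox12b, at 4.44 times its day 2 level, followed by Aloxe3 at 3.91 times and Tgm3 at 3.61 times. Elovl4 and Tgm1 stayed under 2-fold, at 1.91 and 1.87 times.

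Between days 6 and 14 the members separated by gene in both arms. Here the vehicle columns differ in form, whereas the vemurafenib columns have the same form. The log2 difference (day 14 over day 6) of Tgm3 was 2.44 in vemurafenib wounds and 2.02 in vehicle wounds. That of Alox12b was -1.47 in vemurafenib wounds and -1.96 in vehicle wounds, and that of Aloxe3 was -0.65 in vemurafenib wounds and -1.58 in vehicle wounds. Tgm3 was thus at 5.48 times its day 6 level in vemurafenib wounds and 4.06 times in vehicle wounds, whereas both lipoxygenases were lower on day 14 in both arms. Abca12 differed in direction between the arms, with -0.53 in vemurafenib wounds and 0.39 in vehicle wounds, as did Elovl4 with -0.16 in vemurafenib wounds and 0.14 in vehicle wounds, and Cyp4f39 with 0.11 in vemurafenib wounds and -0.75 in vehicle wounds, all within 2-fold. In vemurafenib wounds 2 members, Tgm1 and Tgm3, were at least 2-fold higher on day 14, beside 7.46% of all genes, and 1, Alox12b, was at least 2-fold lower, beside 14.6%. In vehicle wounds Tgm3 alone of the members was at least 2-fold higher, beside 12.6% of all genes, and Alox12b and Aloxe3 were at least 2-fold lower, beside 10.1%.

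**Figure D4:**
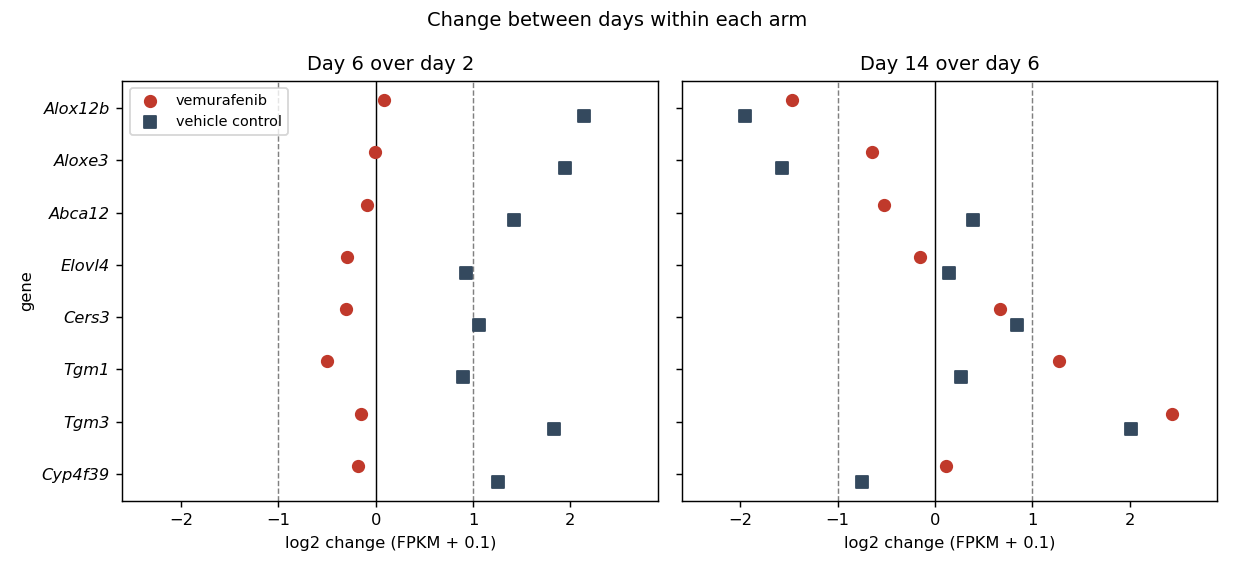
Log2 difference between consecutive days (horizontal axis) for each of the 8 genes (rows), day 6 over day 2 in one panel and day 14 over day 6 in the other, with 1 value for vemurafenib wounds and 1 for vehicle wounds and no error bars. From day 2 to day 6 the vemurafenib values lie between -0.50 and 0.08 and the vehicle values between 0.90 and 2.14, while from day 6 to day 14 Tgm3 is far to the right and Alox12b far to the left in both arms.

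Effects shared by the days or by the arms were fitted with limma on log2(FPKM + 0.1) over all 6 libraries, with day and arm as terms and 2 residual degrees of freedom. For the difference between the arms common to the 3 days, no member passed an adjusted p of 0.05, and 1 gene in all did, the microRNA gene Mir568, or 0.00747% of genes. The estimates lay between -1.06 ± 0.40 (SE) for Alox12b and -0.40 ± 0.38 for Aloxe3, each with an adjusted p of 1.0 from limma. The unadjusted limma p of Alox12b was 0.0354, the only member under 0.05, where 303 of all genes were. These estimates turned on the days used. Without the day 2 libraries, which left 1 residual degree of freedom, that of Alox12b was -1.67. In that fit 7 of the 8 had an unadjusted limma p under 0.05, as did 815 of all 13392 genes. The adjusted p of the 8 ran from 0.317 to 0.942. That fit keeps only the later days, on which all 8 were already seen to be lower in vemurafenib wounds. Without the day 6 libraries Alox12b had -0.64 and Aloxe3 had 0.08, again with 1 residual degree of freedom. None of the 8 then had an unadjusted limma p under 0.05, where 415 of all genes did. The fit over all 6 libraries averages days on which the ratios differ in direction. A term for a difference between days would leave it no residual degree of freedom, so that difference was not tested.

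Among the effects of the days, Tgm3 alone of the members passed. It rose between days 2 and 14 by 3.07 ± 0.48 on the log2 scale (SE, limma adjusted p = 0.00748), higher in both arms, at 4.94 times its day 2 level in vemurafenib wounds and 14.7 times in vehicle wounds. In this contrast 17.9% of all genes passed. Without the filter on the mean the adjusted p of Tgm3 was 0.155, and over all alternatives it ranged from 0.000948 to 0.155. The next members were Cers3 at 1.13 ± 0.42 (adjusted p = 0.119) and Tgm1 at 0.97 ± 0.39 (adjusted p = 0.145). Between days 6 and 14 none of the 8 passed, beside 3.64% of all genes. Tgm3, Alox12b and Aloxe3 had an unadjusted limma p under 0.05, as did 2565 of the 13392 genes. Their estimates were 2.23 ± 0.48 for Tgm3 (adjusted p = 0.0643), -1.71 ± 0.49 for Alox12b (0.123) and -1.11 ± 0.46 for Aloxe3 (0.261). Leaving out the day 2 libraries left 1 residual degree of freedom. That fit gave Tgm3 an adjusted limma p of 0.00508 and Alox12b one of 0.0367, when 820 of all genes passed. Between days 2 and 6 none of the 8 passed, beside 4.75% of all genes. None had an unadjusted limma p under 0.05, where 2305 of all genes did. The lowest adjusted p was that of Alox12b (1.11 ± 0.49, 0.325).

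Profiles over the 6 libraries were compared by the root mean square difference of the centred log2 levels, for which 0 means the same profile. The closest members were Cers3 and Tgm1, at 0.285, and Elovl4 and Cyp4f39, at 0.287, followed by Abca12 and Elovl4, at 0.314. The neighbouring genes Alox12b and Aloxe3 differed by 0.435. The farthest pair was Alox12b and Tgm3, at 1.81, which went opposite ways between days 6 and 14 in both arms. By this measure Elovl4 was the member nearest to the mean profile of the 8, with 23 of 9327 other genes closer to that mean, whereas 6214 were closer than Alox12b and 7842 closer than Tgm3.

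The 10 genes nearest to the members' mean profile were AA986860, 2310014L17Rik, Ceacam19, Elovl7, Pla2g2f, Awat1, Ide, Sdr42e1, Atp6v0a4 and Acer1, at distances between 0.0758 and 0.170. They were chosen by this likeness, so that their shape over the libraries is a description and no result. AA986860, the nearest, stood at 6.59, 5.17 and 6.53 FPKM in vemurafenib wounds, against 5.03, 12.3 and 12.8 FPKM in vehicle wounds. Elovl7, Pla2g2f, Awat1 and Acer1, at ranks 4, 5, 6 and 10, are lipid enzymes and do not stand for all 10. Awat1 is a wax synthase of the sebaceous gland marker list. It stood at 14.9, 13.1 and 13.7 FPKM in vemurafenib wounds, against 11.5, 25.7 and 25.1 FPKM in vehicle wounds. Elovl7, a fatty acid elongase, stood at 9.19, 8.89 and 9.14 FPKM in vemurafenib wounds, against 7.13, 18.7 and 22.1 FPKM in vehicle wounds. Pla2g2f, a secreted phospholipase of the upper epidermis, stood at 46.3, 39.0 and 43.0 FPKM in vemurafenib wounds, against 34.5, 107.03 and 78.5 FPKM in vehicle wounds. Acer1, a ceramidase of the epidermis, stood at 33.7, 24.7 and 30.4 FPKM in vemurafenib wounds, against 19.8, 55.3 and 49.1 FPKM in vehicle wounds.

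The paralogues of the members differed among themselves. Of all 13392 genes, 6022 were lower in vemurafenib wounds on day 6, and 5.03% were at least 2-fold lower. The family counts that follow include the members themselves. In the lipoxygenase family, 6 genes averaged 1 FPKM or more. All 6 were lower in vemurafenib wounds on day 6, 3 of them at least 2-fold, namely the members Alox12b and Aloxe3, and Alox12e. Alox12e, an epidermal lipoxygenase of the mouse, was higher on day 2, at 27.6, 22.1 and 46.5 FPKM in vemurafenib wounds, against 9.51, 48.3 and 62.0 FPKM in vehicle wounds, whereas Alox5, the leukotriene enzyme of leukocytes, had ratios between -0.46 and -0.22. In the transglutaminase family, of which 7 genes passed, 4 were at least 2-fold lower on day 6, the members Tgm1 and Tgm3, and Tgm5 and Tgm6. Tgm5, another epidermal transglutaminase, had log2 ratios of 0.58, -1.09 and -1.20. Tgm6 had -1.40 on day 6 and was near 0 FPKM in both arms on day 2. Tgm2, the widely expressed tissue transglutaminase, had the opposite direction on day 6, with 123.4, 40.9 and 18.0 FPKM in vemurafenib wounds, against 168.1, 22.0 and 19.2 FPKM in vehicle wounds, a log2 ratio of 0.89.

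Among ceramide synthases, Cers3 and Cers4 were lower in vemurafenib wounds on day 6, with ratios of -0.99 and -0.63, while Cers2, which most tissues use, had 0.92 and Cers6 0.93 at levels of 1.41 FPKM in vemurafenib wounds and 0.69 FPKM in vehicle wounds. On day 14 Cers6 had the lowest ratio of the family, -2.10. Among the elongases Elovl4 shared its direction on days 6 and 14 with Elovl1, Elovl3, Elovl6 and Elovl7, whose day 6 ratios lay between -1.07 and -0.57, while Elovl5 had 0.08 on day 6 and -0.78 on day 14. Abca12 was the only 1 of 8 lipid ABCA transporters past the filter to be 2-fold lower on day 6, when the other 7 had ratios between -0.32 and 0.49. On day 14 Abca5, at -1.41, and Abca9, at -1.23, were also at least 2-fold lower. Of 5 Cyp4f genes, Cyp4f39 was the only one at least 2-fold lower on day 6, and Cyp4f18, which neutrophils express, was higher at 1.40, with 113.6, 8.45 and 0.16 FPKM in vemurafenib wounds, against 97.4, 3.15 and 0.23 FPKM in vehicle wounds.

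The other genes of the route were read from fixed lists, by their counts past a mean of 1 FPKM. Of all 13392 such genes, 6022 were lower in vemurafenib wounds on day 6 and 7629 on day 14. At least 2-fold lower were 5.03% of them on day 6 and 7.66% on day 14. Of 21 other genes of ceramide and acylceramide synthesis, 18 were lower in vemurafenib wounds on day 6 and 19 on day 14, of which 4 and 6 were at least 2-fold lower, with medians of 0.23, -0.57 and -0.69 on days 2, 6 and 14. Pnpla1, which transfers linoleate to the ceramide, stood at 2.28, 3.49 and 6.41 FPKM in vemurafenib wounds, against 1.72, 7.88 and 13.4 FPKM in vehicle wounds. Tecr, a reductase of fatty acid elongation in many tissues, had a ratio of -0.65 on day 6 and 0.54 on day 14. Of 17 genes of ceramide release and lamellar body processing, 11 were lower on day 6 and 13 on day 14, with medians of 0.02, -0.24 and -0.73. Psap, the precursor of the saposins of lysosomes in most cells, macrophages included, had 1119.6, 2126 and 831.9 FPKM in vemurafenib wounds, against 1743, 934.1 and 471.7 FPKM in vehicle wounds. The list of 12 other ichthyosis and linoleate genes overlaps the others, since Pnpla1, Abhd5, Slc27a4, Lipn, Sult2b1 and Cldn1 are also in the ceramide lists and Casp14 is in the envelope list, so that its counts are not separate from theirs. Of these 12, 11 were lower on day 6 and 11 on day 14, with 6 and 5 of them at least 2-fold lower and medians of 0.32, -0.99 and -0.84. Sdr9c7, the dehydrogenase that acts after Alox12b and Aloxe3, stood at 7.06, 5.94 and 3.61 FPKM in vemurafenib wounds, against 5.23, 17.7 and 11.95 FPKM in vehicle wounds. Its log2 ratios were -1.56 and -1.70 on days 6 and 14.

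Proteins that transglutaminases crosslink were listed together with controls such as proteases. That list had a lower median ratio on day 6 than the members, a difference that was not tested. It includes Tchh, which is also among the hair markers. Of 25 envelope substrates and controls of crosslinking past the filter, 23 were at least 2-fold lower in vemurafenib wounds on day 6, with a median of -1.73, and 10 on day 14, with a median of -0.84. Of all genes, 5.03% were at least 2-fold lower on day 6 and 7.66% on day 14. Lor, the main envelope protein, stood at 690.6, 1284 and 604.7 FPKM in vemurafenib wounds, against 756.5, 4251 and 638.1 FPKM in vehicle wounds. Sprr1b, a small proline-rich substrate, had log2 ratios of 0.19, -1.68 and -1.10. The exceptions on day 6 were the lysosomal proteases Ctsl, at 2.02, and Ctsd, at 0.57, which macrophages also make. Members of the Sprr and Lce families have similar sequences, and reads could be split between them.

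Transcription factors of epidermal differentiation had medians nearer to 0 than the members on days 6 and 14. Of 23 past the filter, 18 were lower in vemurafenib wounds on day 6, as were 6022 of the 13392 genes. Grhl3 alone of the 23 was at least 2-fold lower, at -1.06, beside 5.03% of all genes. The medians of the 23 factors were 0.44, -0.60 and -0.39 on days 2, 6 and 14. Klf4, a factor of barrier formation, stood at 104.04, 74.9 and 56.9 FPKM in vemurafenib wounds, against 65.1, 98.7 and 91.2 FPKM in vehicle wounds. Prdm1 was at least 2-fold lower on day 14, at -1.24, and Cebpb, a factor of keratinocytes and myeloid cells, was higher, at 1.38. Grhl3 was named after its value was seen.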

How the data were processed

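RNA was sequenced from resected wound skin, 1 library for each arm and day. The deposited values are FPKM, which the authors computed after aligning reads to the mouse mm9 build. The submitters' processing notes name TopHat, TopHat2, Cuffnorm and Cuffdiff, with no versions given in the sources used here. The labels describe single-end reads and the methods paired-end reads. Of 23940 rows, 27 whose symbols had turned into dates were left out, and 0 columns lacked a sample.

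Ratios of the arms were computed per day as log2 of (vemurafenib + 0.1) over (vehicle + 0.1). Fold changes on this log2(FPKM + 0.1) scale understate the change of low genes. The 13392 genes averaging 1 FPKM or more across all libraries entered the counts, with a threshold of 2-fold. Effects common to days or arms were fitted with limma 3.58.1 in R 4.3.3 (mean-variance trend, Benjamini-Hochberg adjustment over all genes, threshold 0.05), and the script was tested on simulated data. Profiles were compared with genes averaging 5 FPKM or more. Python 3.11.15, numpy 2.4.6, pandas 2.3.3 and matplotlib 3.10.9 did the rest.

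The 8 genes, the lists and the rules were chosen with earlier results of these data known. Genes named were the 8, for each pathway list up to 6 with the highest mean FPKM and up to 3 each with the lowest and highest mean ratio, every family gene past the filter, and the 10 nearest profiles; the text names a part of them. Flg and Sprr2a1 of the envelope list and Ly6g of the neutrophil list had no match in the table. Positions are those of the GENCODE annotation of mm9, and promoters are RefSeq sequences of GRCm38.p6 matched without a mismatch to mm9. Alternatives were other pseudocounts, filters and scalings between libraries, limma without the trend or with weights for the columns in the form of averages, and leaving out each day. Depth is unknown, so no counting interval is given.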

Additional observations from a re-analysis of the deposited data

Results flagged for a closer look

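For 7 of the 8 genes the ratio of vemurafenib to vehicle was above 0 on day 2 and below 0 on days 6 and 14, each by more than 0.1 on the log2 scale. Tgm1, with a day 2 ratio of 0.00, was not among them. Of all 13392 genes averaging 1 FPKM or more, 6674 had a ratio above 0 on day 2. Below 0 were 6022 on day 6 and 7629 on day 14, without the margin of 0.1. How many of all genes met the whole rule was not counted, so the pattern cannot be called particular to the 8. The ratios of days 2 and 14 also set a column of one form against one of the other. The difference between the days was not tested, since there is 1 library for each arm and day. The log2 ratio of day 6 minus that of day 2 was -2.05 for Alox12b, -1.98 for Tgm3, -1.95 for Aloxe3, -1.51 for Abca12, -1.43 for Cyp4f39, -1.36 for Cers3 and -1.22 for Elovl4, and -1.68 for the median of the members. The log2 ratio of day 14 minus that of day 2 was -2.43 for Abca12, -1.56 for Alox12b, -1.56 for Tgm3, -1.53 for Cers3, -1.52 for Elovl4, -1.02 for Aloxe3 and -0.57 for Cyp4f39, and -1.49 for the median of the members.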

How the results depend on the processing

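Of 144 values (the 24 ratios of the members under 6 other pseudocounts and scalings), 137 stayed on the same side of 2-fold, 6 no longer reached it and 1 newly reached it. The sign changed in 2 of them, both for Tgm1 on day 2, which was -0.04 with the same upper quartile and -0.0023 by the median ratio. The members' median on day 2 was 0.56 with the same total FPKM and 0.50 with the same total without the 100 most abundant genes. On day 6 it was -0.94 with the same total, and on day 14 it was -1.24 with the same total, -0.95 with the same upper quartile and -1.01 by the median ratio. With the same upper quartile 3 members were at least 2-fold lower on day 14, and with the same total 2 were at least 2-fold higher in vehicle wounds between days 6 and 14. In limma, the difference between the arms was called in 0 genes without a filter and 0 with a mean of at least 5 FPKM, and in 0 to 13 genes when a day was left out, with 0 members each time. Day 6 against day 2 gave 31 genes without a filter and 0 without day 14. Day 14 against day 6 gave 31 genes without a filter and 748 with the same total without the 100 most abundant genes, when 1 member, Tgm3, passed, and 820 genes and 2 members, Alox12b and Tgm3, without day 2. Day 14 against day 2 gave 12 genes and 0 members without a filter, and 2550 genes and 1 member without day 6. The cause of these differences was not tested. No replicates could be paired, because there is 1 library for each arm and day. The limma fit compared the arms within days through its day term. FPKM carry no read number, so what depth limits cannot be given.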

Other observations

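Sebaceous gland and wound-edge markers had median ratios in the members' direction on days 6 and 14. Basal keratinocyte markers did so on day 6 only, with a median of 0.20 and 7 of 12 higher on day 14. Of all 13392 genes, 6022 were lower in vemurafenib wounds on day 6 and 7629 on day 14. Sebaceous gland markers, which include the elongase Elovl3 and the wax synthase Awat1, had median log2 ratios of 0.36, -0.83 and -0.87 on days 2, 6 and 14, with 8 of 9 past the filter lower in vemurafenib wounds on day 6 and 8 of 9 on day 14. They summed to 571.3, 456.3 and 357.6 FPKM in vemurafenib wounds, against 346.3, 794.7 and 587.8 FPKM in vehicle wounds. Keratins and peptides of the wound edge had medians of -0.03, -1.65 and -0.90, with 10 of 10 lower on day 6 and 7 of 10 on day 14, and summed to 15087, 4240 and 2904 FPKM in vemurafenib wounds, against 14438, 11694 and 1982 FPKM in vehicle wounds. Their summed level was thus lower in vemurafenib wounds on day 6 only.

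Lists of other cells had other directions. Neutrophil markers had medians of 0.26, 1.33 and -0.21, fibroblast markers -0.77, 0.44 and -0.48, vascular endothelial markers -0.40, 0.44 and 0.30, and adipocyte markers -0.04, -0.30 and 0.46 on days 2, 6 and 14. Their part in the ratios of the 8 barrier genes was not tested.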
